A study of Mus musculus with 6 samples.

Results

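Il1a, Il1b, Il6, Il10 and Il12a encode interleukins that monocytes, macrophages and dendritic cells are best known for secreting, and they were chosen by name. All 5 were found among the 559 genes of the deposited table. The libraries came from natural killer (NK) cells, cytotoxic lymphocytes purified here from the spleens of C57BL/6 mice. One group of 3 libraries was from cells kept for 36 h in the presence of the unsaturated fatty acid oleic acid (OA) at 0.2 mM, and the other group of 3 was from cells kept without it. The study asked which transcripts differ in NK cells after OA. Per the labels, the treatment was carried out once. Nothing in them says whether the 3 libraries of a group came from separate mice or cultures, so the p-values here measure the spread between these libraries, which may be technical. The labels used here do not state the age or number of the mice, or any vehicle in the control medium.

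IL-1 alpha and IL-1 beta act on the same IL-1 receptor and start fever, chemokine release and NF-kB signalling. IL-1 beta is made as an inactive precursor that caspase-1 cuts in the inflammasome, whereas the IL-1 alpha precursor is already active. IL-6 is a further inflammatory cytokine, which signals through STAT3, and IL-10 uses STAT3 to restrain macrophage activation. Il12a encodes the alpha subunit of IL-12, which pairs with the product of Il12b; IL-12 drives interferon gamma production by NK cells. NK cells carry receptors for IL-12 and IL-18, and some NK and B cells can themselves make IL-10.

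The table holds only genes that the authors' own comparison had called, with Q values up to 0.0499, so each gene in it was already selected for a difference between the same libraries. Values are TPM, a share of each library scaled for transcript length. TPM carries no read numbers, so depth is unknown and no counting error can be given. The table genes summed to 12.2% to 12.6% of a library's scale. Of 20 listed NK marker genes, 12 were in the table and 0 of them stood at 0 in any library. The same held for the table's markers of other cell types, so this does not check the NK label.

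A pair of OA libraries stood apart from the other libraries in heart muscle transcripts, which were looked at after their values had been seen. Of 20 genes known from heart muscle, 16 were in the table. They summed to 34.7, 58.4 and 44.2 TPM in control replicates 1 to 3 and to 50.9, 477 and 6564 TPM in OA replicates 1 to 3, the last being 0.656% of that library's scale. Myl2, a ventricular myosin light chain gene, stood at 3.46, 92.21 and 1205.78 TPM in OA replicates 1 to 3 and at 2.92 to 6.64 TPM in the controls. Heart muscle transcripts were thus high in OA replicate 3 and to a lesser degree in OA replicate 2, while OA replicate 1 was within the range of the controls. Without OA replicate 3, limma called 4 of the 5 interleukin genes higher, and 174 of the 559 table genes. The 4 had log2 fold changes of 0.24 (Il1b), 0.34 (Il6), 0.37 (Il1a) and 0.48 (Il10), and Il12a stood at 0.23 (adjusted p = 0.054, limma). In OA replicate 1 alone, without a test, Il1a, Il1b, Il6, Il10 and Il12a stood at 1.26, 1.15, 1.24, 1.29 and 1.15 times the control mean.

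All 5 interleukin transcripts were higher after OA, by 1.17-fold to 1.44-fold, and none of them overlapped between the groups. In limma on log2(TPM + 1), fitted to all 559 genes, all 5 passed a Benjamini-Hochberg adjusted p under 0.05, where 36.0% of the table was called higher. The median log2 fold change was 0.33 over the 5 genes, against 0.38 over the 201 genes called higher and 0.14 over the whole table. Every OA library stood above every control library for 45.1% of the table. Since the members were chosen with earlier results known and the table was selected on the same contrast, 5 of 5 describes these genes and supports nothing further.

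The count of calls rested on single libraries. Without control replicate 1, or without OA replicate 2, limma called 0 of the 5 genes (5 and 4 at an unadjusted p under 0.05) and also 0 genes of the whole table. The fit that dropped control replicate 2 called 3 of the 5 higher, and 87 of the 559 table genes. The one that dropped replicate 3 of both groups called 5 higher, and 190 of the table.

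**Figure D1:**
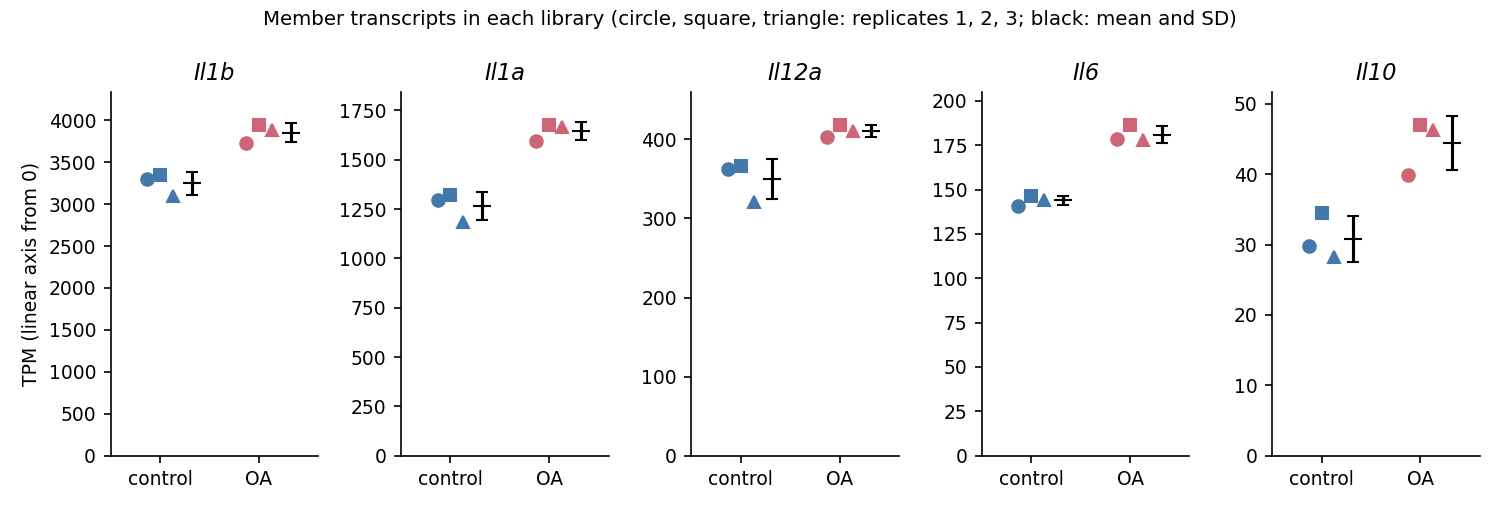
Each panel plots the TPM of 1 interleukin gene in the 3 control and 3 OA libraries on a linear axis from 0, with the mean and SD in black beside the points. For all 5 genes the 3 OA points lie above the 3 control points, and control replicate 3 (triangle) is the lowest control for Il1b, Il1a, Il12a and Il10 but not for Il6.

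Il1b was the most abundant of the 5 and ranked 3 of 559 by mean TPM in the table. It stood at 3298.14, 3350.45 and 3090.73 TPM in the controls (replicates 1, 2 and 3 in that order, as for the genes that follow) and at 3726.25, 3942.49 and 3881.01 TPM after OA. The lowest OA library was 11.2% above the highest control library. The mean rose 1.19-fold, from 3246 ± 137 to 3850 ± 111 TPM (SD, n = 3 per group; log2 fold change 0.25, SE 0.055, adjusted p = 0.026, limma). Without control replicate 2 the adjusted p was 0.0507 (limma).

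Il1a stood at 1293.78, 1319.46 and 1185.97 TPM in the controls and at 1593.73, 1676.08 and 1664.96 TPM in the OA libraries. The groups were further apart than for Il1b, with the lowest OA library 20.8% above the highest control. Il1a rose 1.3-fold, from 1266 ± 70.8 to 1645 ± 44.7 TPM (SD, n = 3 per group; log2 0.38, SE 0.061, adjusted p = 0.026, limma). In the authors' deposited table its Q value was 7.08e-13, rank 1 of all 559 genes, although its fold change ranked 171 from the top in limma.

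The 2 IL-1 genes are neighbours, with 54382 bases between their RefSeq spans. On GRCm38.p6 Il1a spans chr2:129299609-129310186 and Il1b spans chr2:129364569-129371164, both on the minus strand. Il1a stood at 39.2%, 39.4% and 38.4% of the Il1b level in control replicates 1 to 3 and at 42.8%, 42.5% and 42.9% in OA replicates 1 to 3. The ratio was thus steady within each group and did not overlap between them. The log2 ratio of Il1a to Il1b was 0.13 higher in OA (SE 0.012; exact permutation p = 0.1, two-sided, the smallest that 3 against 3 libraries can give; adjusted over 10 pairs 0.25).

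Il6, on chr5:30013114-30019975, stood at 140.94, 146.51 and 144.07 TPM in the controls and at 178.72, 186.34 and 177.95 TPM in the OA libraries. Its libraries lay closest together in the controls, with an SD of 1.94% of the mean, and control replicate 3 was not low. Il6 rose 1.26-fold, from 144 ± 2.79 to 181 ± 4.64 TPM (SD, n = 3 per group; log2 0.33, SE 0.046, adjusted p = 0.026, limma). Across the fits that left out libraries its log2 fold change ranged from 0.31 to 0.34.

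Il10, on chr1:131019845-131024970, was the least abundant and had the largest fold change. It stood at 29.85, 34.51 and 28.21 TPM in the controls and at 39.95, 46.99 and 46.34 TPM in the OA libraries. Its libraries were also the most scattered, with an SD of 10.6% of the mean in control and 8.76% in OA. Il10 rose 1.44-fold, from 30.9 ± 3.27 to 44.4 ± 3.89 TPM (SD, n = 3 per group; log2 0.51, SE 0.105, adjusted p = 0.026, limma). Without control replicate 3 the log2 value was 0.45 and the adjusted p 0.0504 (limma).

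Il12a, on chr3:68690644-68698550, stood at 362.46, 366.03 and 320.59 TPM in the controls and at 403.36, 418.19 and 410.69 TPM in the OA libraries. It had the smallest rise, 1.17-fold, from 350 ± 25.3 to 411 ± 7.42 TPM (SD, n = 3 per group; log2 0.23, SE 0.068, 95% interval 0.06 to 0.41, adjusted p = 0.0326, limma). Control replicate 3 was at 88.0% of the mean of the other 2 controls, and without that library the log2 value was 0.17 (adjusted p = 0.0491, limma). Il12a was also the member whose call was lost most often, with 6 of 13 refits at an adjusted p under 0.05. With the libraries scaled to equal medians its adjusted p was 0.0517 (limma).

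TPM is scaled for length, so the levels of the genes can be set side by side. In every library the order was Il1b, Il1a, Il12a, Il6 and Il10, with no overlap between neighbours in that order. Within a library Il1b was 2.33 to 2.61 times Il1a, Il1a was 3.57 to 4.05 times Il12a, Il12a was 2.23 to 2.57 times Il6, and Il6 was 3.84 to 5.11 times Il10. Il1a and Il1b together made up 89.5% to 89.7% of the summed TPM of the 5 genes. That sum was 4770 to 5217 TPM in the controls and 5942 to 6270 TPM in the OA libraries, or 0.594% to 0.627% of the scale in OA.

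Whether the 5 genes rose by different amounts was tested in all 10 pairs, as the change in the log2 ratio within a library. No pair passed, since an exact permutation p cannot fall below 0.1 here, and the smallest p adjusted over the 10 pairs was 0.25. The groups did not overlap for 4 pairs: Il1a against Il1b, Il1a against Il12a, Il10 against Il1b and Il10 against Il12a. The 10 pairs share the same 5 genes, so they are not independent, and pairs of other table genes were not counted beside them. Il1a gained 0.14 on Il12a (SE 0.019). The ratio of Il10 to Il12a was 0.29 higher in OA (SE 0.084), and that of Il1b to Il10 fell by 0.28 (SE 0.079). For Il1b against Il12a the difference was 0.01 (SE 0.028), the smallest of the 10. Il10 stood at 8.24%, 9.43% and 8.8% of the Il12a level in the controls and at 9.9%, 11.2% and 11.3% in the OA libraries.

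The IL-1 receptor antagonist gene Il1rn, whose product blocks the receptor that both IL-1 proteins use, was examined beside its agonists after its values had been seen. It rose from 374 ± 41.2 to 516 ± 31.8 TPM (SD, n = 3 per group; log2 0.47, SE 0.101, adjusted p = 0.026, limma). Relative to Il1a plus Il1b it stood at 8.33%, 8.78% and 7.69% in the controls and at 9.02%, 9.61% and 9.53% in the OA libraries. The antagonist transcript was thus higher both in level and per agonist transcript in each OA library, with a narrow gap between OA replicate 1 and control replicate 2.

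**Figure D2:**
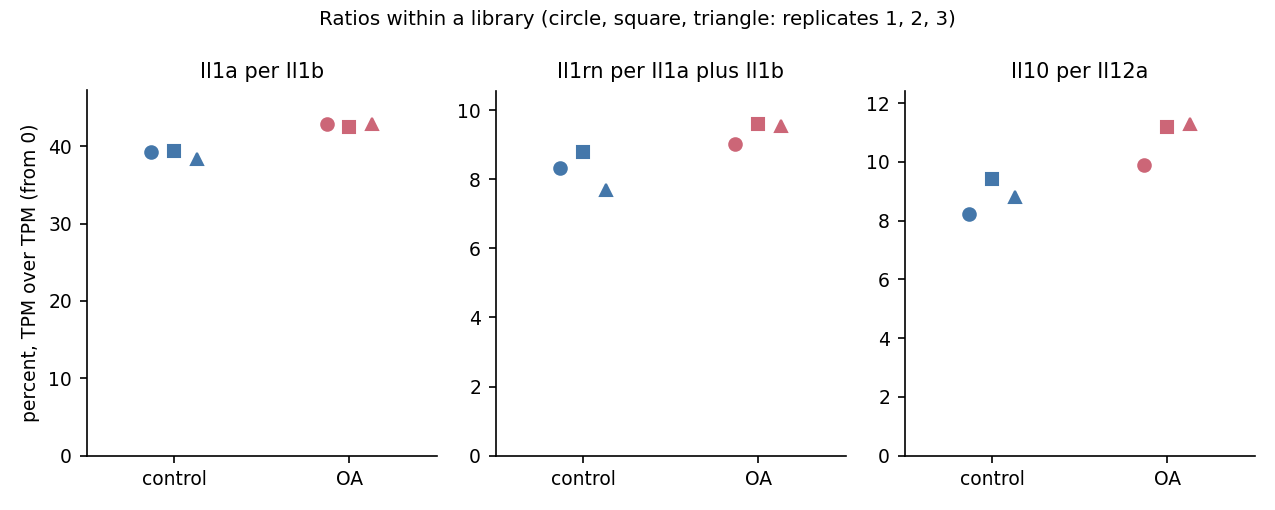
The 3 panels plot, for each library on a linear axis from 0, the TPM of Il1a as a percent of Il1b, of Il1rn as a percent of Il1a plus Il1b, and of Il10 as a percent of Il12a. In each panel the 3 OA points lie above the 3 control points; for Il1a per Il1b they lie at 42.5% to 42.9% against 38.4% to 39.4%.

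Of 147 other genes in 9 lists of ligands, receptors, processing enzymes and regulators around these interleukins, 21 were in the table. Of these 10 were called higher and 8 lower, and 3 did not pass, against 36.0% and 40.1% of the table, with a median log2 fold change of 0.14. With the libraries scaled to equal medians limma called 10 higher and 3 lower, against 162 and 82 over the whole table. The calls were 6 higher and 0 lower with control replicate 2 left out, where the table had 87 and 13. With control replicate 3 left out they were 8 and 0, where the table had 119 and 30. Leaving out control replicate 1, or OA replicate 2, left 0 calls in either direction.

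The 4 receptor chain genes for IL-12 and IL-18 were lower after OA. Il12rb1 and Il12rb2, the receptor chains for the cytokine that contains the Il12a product, fell to 78.7% and 69.5% of the control level (log2 −0.34 and −0.53). Il18r1 and Il18rap, the chains of the IL-18 receptor on NK cells, fell to 75.1% and 80.1%. For each of the 4, every OA library lay below every control library, as for 48.5% of the table. The genes for the IL-1, IL-6 and IL-10 receptors were not in the table, nor were Il12b, Il18, Nlrp3 and Casp1. Casp4, an inflammatory caspase gene of the inflammasome list, was lower after OA, at 86.5 ± 4.08 TPM against 104 ± 5.82 TPM in control (SD, n = 3 per group; log2 −0.26, SE 0.066, adjusted p = 0.0285, limma).

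Upstream of the interleukins, Cd14, the co-receptor for lipopolysaccharide, rose 1.46-fold and Tlr8, an RNA sensor gene, rose 1.23-fold. Nod1, a sensor of bacterial peptidoglycan, fell to 73.1%, while the beta-glucan receptor gene Clec7a was at 202 ± 6.55 TPM against 235 ± 23 TPM in control (SD, n = 3 per group; adjusted p = 0.0589, limma). The 1 table gene of the NF-kB list was Nfkbiz, whose product helps induce Il6 and Il12b; it rose from 112 ± 4.79 to 133 ± 1.8 TPM. Among the transcription factors, Fos, Egr1 and Egr2 rose 1.45-fold, 1.23-fold and 1.33-fold. The AP-1 gene Jund fell to 86.6%, and Junb did not pass at 557 against 505 TPM (adjusted p = 0.0514, limma). Socs3, a feedback inhibitor of IL-6 signalling, did not pass at 339 against 313 TPM (adjusted p = 0.0627, limma).

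**Figure D3:**
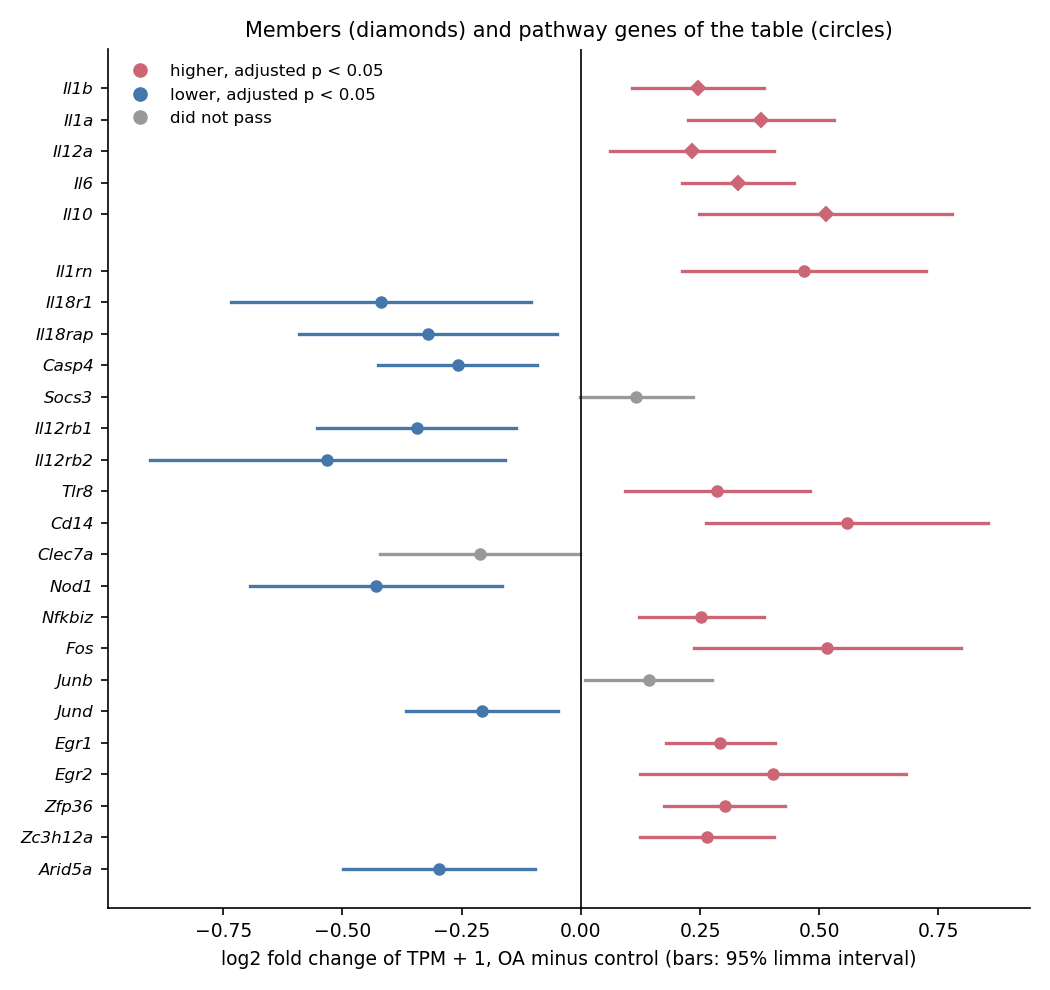
The horizontal axis is the log2 fold change of TPM + 1, OA minus control, with the 95% interval from limma, for the 5 interleukin genes (diamonds) and 20 other table genes of the 9 lists (circles), coloured by call. All 5 diamonds lie to the right of 0, from 0.23 to 0.51, while the 4 receptor chain genes of IL-12 and IL-18 lie to the left.

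The promoters are shown because the 5 genes were higher together. RefSeq promoter windows on GRCm38.p6 were matched for 4 of the 5 members. Il10 had no entry. Bases before the transcription start follow, with matches to 5 motifs in capitals, for Il1a at chr2:129309973-129310072 (minus strand), Il1b at chr2:129371140-129371239 (minus strand) and Il6 at chr5:30012864-30013113 (plus strand). The RefSeq spans of Il1a and Il1b given above reach beyond the starts used for these windows.
Il1a: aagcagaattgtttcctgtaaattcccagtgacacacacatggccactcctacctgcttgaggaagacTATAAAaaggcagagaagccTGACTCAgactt
Il1b: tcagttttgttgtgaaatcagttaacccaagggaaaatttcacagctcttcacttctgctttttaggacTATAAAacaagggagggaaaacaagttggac
Il6: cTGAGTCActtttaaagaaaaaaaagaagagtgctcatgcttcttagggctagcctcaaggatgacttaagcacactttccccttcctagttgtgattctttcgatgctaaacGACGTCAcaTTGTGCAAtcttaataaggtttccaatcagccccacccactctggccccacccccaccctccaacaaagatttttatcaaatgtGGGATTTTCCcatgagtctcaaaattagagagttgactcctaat

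The motifs were searched in the 250 bases before the start. They were the AP-1 site TGANTCA, the cAMP response element core TGACGTC, the C/EBP site TTNNGCAA and the kappa-B consensus, each on both strands, and the TATA box TATAAA on the gene's own strand. Il6 held 4 of the 5: an AP-1 match from base 249 to base 243 before the start, the cAMP element core from 137 to 131 on the opposite strand, C/EBP from 128 to 121 and kappa-B from 44 to 35. Il1a held a TATA box from 32 to 27 and an AP-1 match from 12 to 6, and Il1b a TATA box from 31 to 26. None of the matches overlapped another motif. Neither of the 2 Il12a windows held any of the 5. Of all 32851 mouse windows, 6.75% held the AP-1 letters, 2.78% the cAMP element core, 9.56% C/EBP, 7.25% kappa-B and 7.59% the TATA box. The match is of letters only; binding was not measured in these libraries.

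Many cytokine mRNAs carry AU-rich elements after the stop codon, built on the pentamer ATTTA, through which tristetraprolin speeds their decay. In GENCODE M21, on GRCm38, Il6, Il10 and Il12a each held 6 such pentamers, Il1b held 4 and Il1a held 3. Per 1000 bases of this 3′ region the density was 14.1 in Il6, 12.1 in Il12a, 8.71 in Il1b, 8.5 in Il10 and 2.72 in Il1a. Over 20034 mouse coding genes the median was 1.2. The share of those genes with a density as high or higher was 0.444% for Il6, 0.719% for Il12a, 1.87% for Il1b, 2.04% for Il10 and 25.3% for Il1a. By number of pentamers the members stood out less. Of the same genes 15.2% held as many or more as Il6, Il10 and Il12a, 25.7% as Il1b and 33.1% as Il1a. Il1a, with the lowest density, had the longest region of the 5, at 1101 bases. The regions of the others were 427 (Il6) to 706 bases (Il10) long, below the median of 845 bases over all those genes. The closest groups of pentamers, in capitals, show how they are packed. They lie at chr5:30019691-30019706 in Il6, chr3:68698438-68698463 in Il12a, chr2:129364808-129364824 in Il1b and chr2:129300109-129300125 in Il1a, each within 1 stretch of at most 30 bases; Il10 held no 2 pentamers that close.
Il6: ATTTAttgataATTTA
Il12a: ATTTAtATTTATTTAttttctATTTA
Il1b: ATTTATTTAtgtATTTA
Il1a: ATTTAtaaatatATTTA

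**Figure D4:**
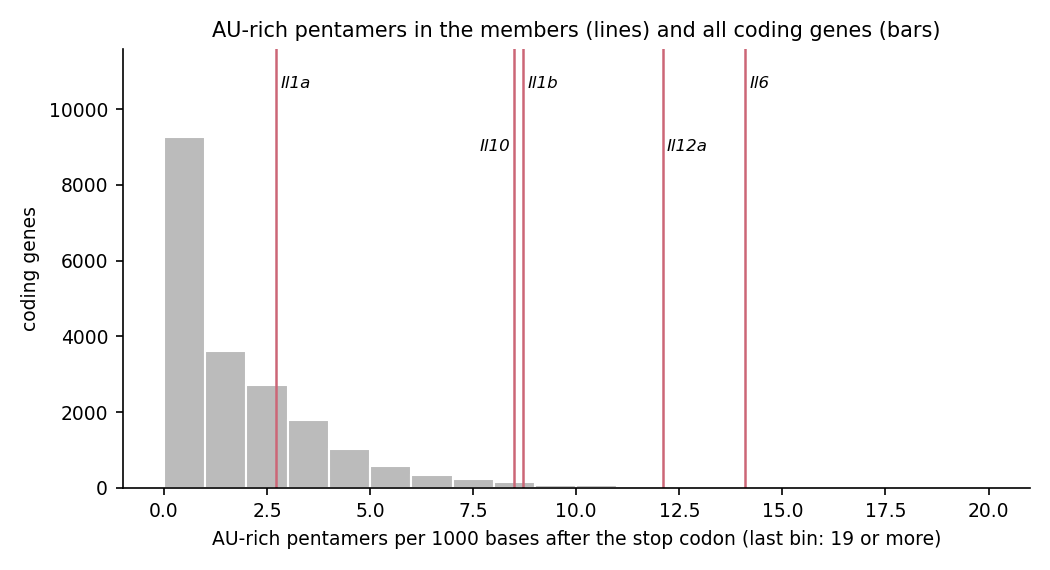
Bars count mouse coding genes by the number of AU-rich pentamers per 1000 bases after the stop codon, in bins of 1, and lines mark the 5 interleukin genes. Il6, Il12a, Il1b and Il10 lie between 8.5 and 14.1, in the sparse right tail, and Il1a lies at 2.72 among the bulk of genes.

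Of 11 genes listed as regulators of cytokine mRNA decay, 3 were in the table, of which 2 rose and 1 fell. Zfp36, which encodes tristetraprolin, stood at 304.11, 304.79 and 289.69 TPM in the controls and at 356.89, 372.96 and 378.24 TPM in the OA libraries (log2 0.30, SE 0.05, adjusted p = 0.026, limma). Zc3h12a, whose product Regnase-1 cleaves Il6 mRNA, stood at 116.22, 116.11 and 107.03 TPM and at 133.78, 139.99 and 134.43 TPM (log2 0.27, SE 0.056, adjusted p = 0.026, limma). Both decay factor genes were thus higher in the libraries in which the interleukin transcripts were higher. Arid5a, whose product stabilises Il6 mRNA, was lower, at 34.4 ± 2.59 TPM against 42.5 ± 2.63 TPM in control (SD, n = 3 per group; log2 −0.30, SE 0.08, adjusted p = 0.0301, limma).

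The genes whose profiles over the 6 libraries were most like each member were ranked by the root mean square difference of centred log2(TPM + 1) among 464 named table genes with a mean of at least 10 TPM. The 6 libraries share 2 groups, so the measure mostly reflects the size of the OA difference. For Il1b the closest were Fdps (0.0124), an enzyme gene of the sterol pathway, Mpeg1 (0.0162), which encodes the macrophage pore protein perforin-2, and Zc3h12a (0.0196). Mpeg1 (0.0167) was also the closest to Il12a, before the C-type lectin gene Clec4d (0.0211) and the tubulin gene Tubb6 (0.0213). Il1b and Il12a ranked 9 in each other's lists, closer than any other 2 members. For Il1a the closest were Dusp6 (0.0248), a MAP kinase phosphatase gene, Cpt1a (0.027) and Amigo2 (0.0295), and for Il6 Lrrc25 (0.0369) and the immediate early gene Egr1 (0.0372). For Il10 they were Cd300c2 (0.05), Il1rn (0.0521) and Mzb1 (0.0629), a plasma cell and B cell gene.

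Markers of some other cell types moved with the interleukins, and those of others moved the opposite way. Of 36 monocyte and macrophage markers, 14 were in the table, 12 of them called higher and 2 lower (Ly6c2 and Ccr2). Their summed level was 2769 to 3182 TPM in the controls and 3570 to 3831 TPM in OA, a 1.24-fold difference, within the range of the 5 members' own folds. The median log2 fold change of the 14 markers was 0.37, against 0.33 for the 5 members. It was 0.38 over all 201 table genes called higher, so nearness of these medians is not particular to the markers. The markers were uneven: Itgam and Adgre1 rose 1.12-fold and 1.13-fold, and Cd14 1.46-fold. The arginase gene Arg1 and the fatty acid receptor gene Cd36 rose 2.9-fold and 2.19-fold. The 2 neutrophil markers in the table of 14, Mmp8 and Mmp9, summed to 347 to 462 TPM in control and 548 to 603 TPM in OA, and 6 of 17 B cell and plasma cell markers to 323 to 403 and 503 to 592 TPM. The 12 NK markers summed to 4561 to 5442 TPM in control and 3003 to 3857 TPM in OA, 71.6% of the control level. The 2 of 14 T cell markers and the 3 of 11 basophil and mast cell markers were at 80.8% and 79.4%, and 0 of 14 dendritic cell markers were in the table. None of the table's marker genes was at 0 in any library. In such bulk libraries a different number of cells of a type and a different amount of RNA per cell cannot be told apart, and the part of these cell types in the interleukin differences was not tested.

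Relative to the summed monocyte and macrophage markers of the same library, the interleukin differences were smaller. These markers, like the members, were in the table only because they differed between the same libraries, and most were called higher. Dividing by their sum thus lowers the log2 difference of any gene and does not measure the number of such cells. On the log2 scale Il10 was 0.22 higher in OA and Il1a 0.07 higher, Il6 differed by 0.02, and Il1b and Il12a were lower, at −0.06 and −0.08. The groups overlapped only for Il6. For the 4 genes other than Il10 the sign depended on how the markers were combined. Without Arg1, Cd36 and Apoe in the sum, Il1a, Il1b, Il6 and Il12a stood at 0.16, 0.02, 0.11 and 0.01. With the geometric mean of all the markers they stood at −0.02, −0.15, −0.07 and −0.16. Il10 was higher per monocyte and macrophage marker in all 3 forms (0.22, 0.30 and 0.13). Relative to the B cell and plasma cell markers, however, all 5 interleukin genes were lower in OA, from −0.03 (Il10) to −0.32 (Il12a) on the log2 scale. Relative to the 2 neutrophil markers 4 of the 5 were lower, from −0.13 (Il1a) to −0.28 (Il12a), with Il10 at 0.02. Relative to the NK markers all 5 were higher in OA, by 0.72 (Il12a) to 1.01 (Il10).

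Control replicate 3 stood low for several of these transcripts within its own group. Set against the mean of the other 2 controls it was at 90.8% for Il1a, 93.0% for Il1b, 87.7% for Il10 and 88.0% for Il12a. Il6 was at 100%. The same library was at 88.7% for the summed monocyte and macrophage markers, 78.5% for the neutrophil markers and 118% for the NK markers. Without replicate 3 of both groups the log2 fold changes of the 5 genes were 0.17 (Il12a) to 0.42 (Il10), against 0.23 to 0.51 with all libraries.

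**Figure D5:**
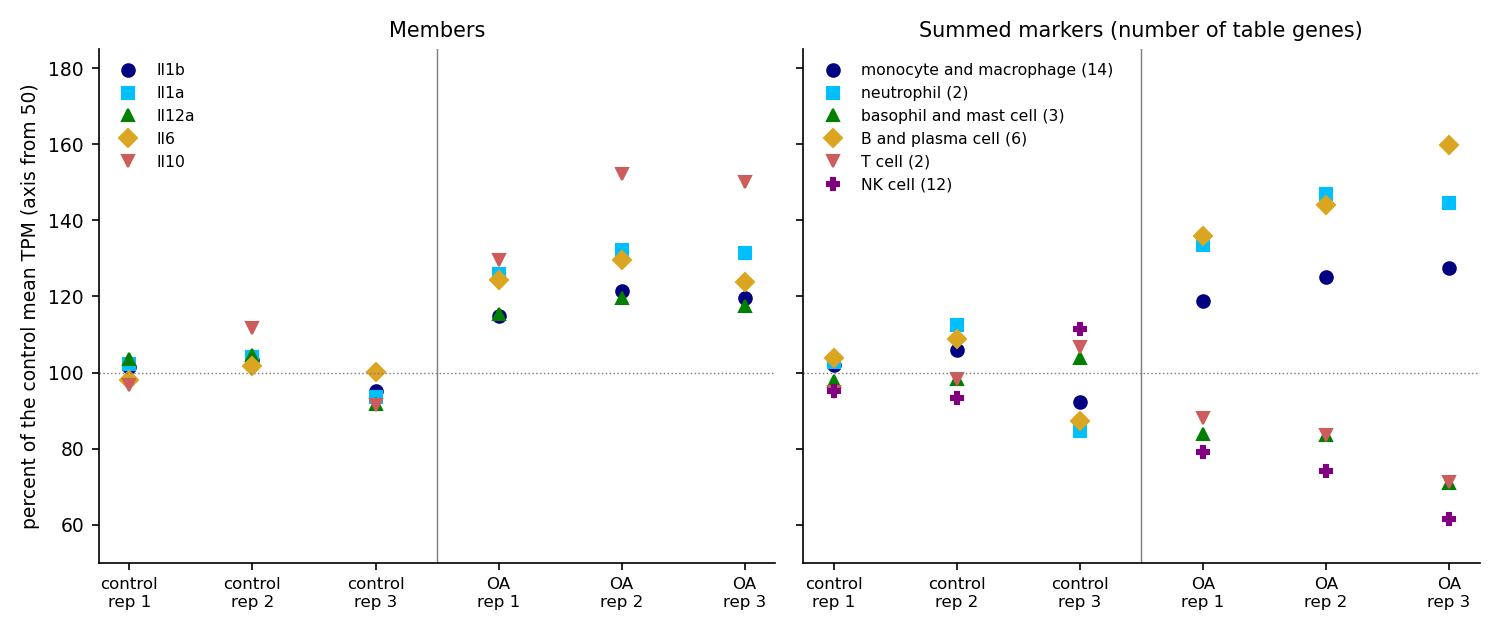
For each library the left panel plots the TPM of the 5 interleukin genes and the right panel the summed TPM of 6 sets of cell type markers, as a percent of the control mean, on an axis that starts at 50. The interleukin genes and the myeloid, neutrophil and B cell markers stand above 100 in all 3 OA libraries, where the NK, T cell and basophil markers stand below it.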

How the data were processed

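RNA-seq of 3 control and 3 OA libraries was used; groups follow the treatment label and columns were matched by sample title. Bowtie2, RSEM 1.3.1, DESeq2 1.4.5 and mm10 appear, per the submitters' processing notes, with no role or order; the sources used here give no annotation, filter or depth. Per the file headers, the authors deposited TPM per library, group mean TPM, a log2 fold change, and a P value and Q value per gene. Other genes were not analysed here.

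The members, gene lists and tests were chosen with earlier results of these data known. limma 3.58.1 (R 4.3.3) was run on log2(TPM + 1) over all 559 genes with no filter or covariate, two-sided, with Benjamini-Hochberg adjustment at 0.05; fold changes on this scale are understated for low genes. The fit was tested on simulated data, where it recovered 41.8% of log2 changes of 0.25 and 76.2% of those of 0.5. Of its calls there, 2.79% were false. Whether these rates hold for the deposited table, whose genes were already selected on the same contrast, was not tested. Pairs of members were compared by exact permutation over libraries (scipy 1.17.1). Named genes were the members, table genes of 9 pathway lists, up to 4 per marker list and the 3 nearest profiles of each member. Mpeg1 and the other nearest genes follow that rule, and not every gene so named is given. The Il1rn ratio, the heart muscle list, Arg1 and Cd36 were picked with their values in view. Ly6c2 and Ccr2 were named beyond the rule as the myeloid markers called lower, and Apoe as a marker left out of a sum. Coordinates and promoters are RefSeq's on GRCm38.p6, matched by gene identifier; 3′ regions are GENCODE M21's, from 1 coding transcript per gene with a region of at least 50 bases. No 2 libraries were identical, with at most 14 equal values. Python 3.11.15, numpy 2.4.6, pandas 2.3.3 and matplotlib 3.10.9 were used. Alternatives were other pseudocounts, a level filter, equal medians, a replicate block, another prior, a stricter threshold and leaving out libraries.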

Additional observations from a re-analysis of the deposited data

How the results depend on the processing

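The direction of all 5 members held in every refit, which leaving out libraries could not have changed for groups that do not overlap. Of 70 refits and thresholds for the members, 44 kept the call and 26 lost it. Leaving out libraries gave log2 fold changes of 0.32 to 0.41 for Il1a, 0.21 to 0.27 for Il1b, 0.31 to 0.34 for Il6, 0.42 to 0.59 for Il10 (0.45 to 0.59 leaving out 1 library) and 0.17 to 0.27 for Il12a, with 0 to 5 members, 0 to 9 higher and 0 to 7 lower pathway genes called. With a replicate block the values were 0.38, 0.25, 0.33, 0.51 and 0.23 as before, with adjusted p from 0.115 to 0.118 and 0 calls for the members, for either pathway count and for the whole table. The numbers share no source in the labels, so the block was not taken as a pairing. The deviations of same-numbered libraries correlated at 0.33, −0.11 and −0.08, and those of other-numbered libraries at −0.4 to 0.35. These correlations cannot show whether the numbers mark pairs. At an adjusted p under 0.01 the same values gave 0 calls in all 3 counts. Equal medians left Il12a at 0.22 (adjusted p = 0.0517, limma), 4 members called and 3 lower pathway genes; over the table they gave 162 higher and 82 lower calls, against 201 and 224. The adjusted p of the members ranged from 0.0123 to 0.118 over all refits.

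Among the pair ratios, Il1b to Il12a ranged from −0.0035 without control replicate 1 to 0.04, against 0.01 with all libraries. Il1a to Il6 ranged from −0.00077 without control replicate 3 to 0.08, and was −0.02 without replicate 3 of both groups, against 0.05. The cause was not tested. Relative to the myeloid markers, leaving out Arg1, Cd36 and Apoe gave 0.16 for Il1a, 0.02 for Il1b, 0.11 for Il6, 0.30 for Il10 and 0.01 for Il12a, and the geometric mean gave −0.02, −0.15, −0.07, 0.13 and −0.16. Leaving out libraries gave 0.06 to 0.09 for Il1a, −0.08 to −0.03 for Il1b, −0.01 to 0.11 for Il6, 0.18 to 0.26 for Il10 and −0.09 to −0.05 for Il12a. Depth is unknown, so counting error, which weighs most on Il10 at 30.9 TPM in control, could not be given.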
